A study of Homo sapiens with 8 samples.

Results

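The data were MBD-seq peak lists of 8 neuroblastoma (NB) cell lines, and the 9 genes described here were the cell cycle inhibitors *CDKN2A*, *CDKN2B*, *CDKN2C*, *CDKN2D*, *CDKN1A* and *CDKN1B*, the D cyclins *CCND1* and *CCND2*, and the p53 family gene *TP73*, out of 64449 annotated genes, 20163 of them protein-coding. They were taken by name, and a peak was counted for a gene when it overlapped, by at least 1 bp, the promoter window of any annotated transcription start site (TSS), which reached 1500 bp upstream and 1000 bp downstream of it, or the gene body. MBD-seq sequences the DNA fragments that bind to MBD2, a protein with affinity for methylated CpG, so that a peak marks a stretch enriched for methylation. As models of the tumor the samples are limited: each line is 1 established culture with 1 library, the lines differ in more than *MYCN*, and copy number and expression of the 9 genes were not analysed here.

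Cells enter S phase once cyclin-dependent kinases 4 and 6, bound to a D cyclin, phosphorylate the retinoblastoma protein. The INK4 inhibitors, encoded by the *CDKN2* genes, bind these kinases, and the CIP/KIP inhibitors, encoded by the *CDKN1* genes, act on cyclin-kinase complexes more widely. In NB, *CCND1* is known for high expression, *TP73* lies in the distal part of the short arm of chromosome 1 that is often lost, and the *CDKN2A* promoter is a classical site of silencing by methylation in other cancers.

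The MNA (*MYCN* amplified) lines were IMR-32, N206, CHP-902R and LAN-2 (LA-N-2 in its sample label), and the *MYCN* single copy lines were CLB-GA, SJNB-1, SK-N-AS and SH-SY5Y. The lists held 70816 to 112410 peaks, with more in the 4 MNA lines (88495 to 112410) than in the single copy lines (70816 to 86078). The paper reports that the number of reads differed between the lines, but gives only its range. The depth of each library is unknown from the lists, so a missing peak means only that none was called. As a check of the labels, the bases within 1 Mb of *MYCN* were covered by peaks to 8.68% to 19.8% in MNA lines, and to only 1.87% to 4.76% in single copy lines (exact permutation test, two-sided, p = 0.0286, the smallest that 4 against 4 lines allow). A peak's score is minus 10 log10 of its p-value in MACS, and no peak had a score under 50.

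The 9 genes carried 84 peaks over the 8 lines, of which MNA lines had 40 and single copy lines 44. Of these, 23 lay over a coding exon, 14 over another exon, 41 in an intron and 6 upstream of the gene. Only 7 lay in the window of the canonical TSS, the start of the transcript that GENCODE takes as the representative of the gene, and 0 of the 84 covered that TSS itself. The peaks were of middling strength: the median score stood at percentile 43.4 of its own list, 11 peaks reached a score of 100, and the highest, 163.12, was in *CDKN2B* in LAN-2.

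When any TSS was allowed, a promoter peak was present at each of the 9 genes in 1 or more lines, against 73.9% of protein-coding genes, and 4 of 9 did at the canonical TSS, against 49.2%. With TSSs of protein-coding transcripts only, 6 of the 9 genes had a promoter peak in 1 or more lines. The share of all protein-coding genes under that setting was not counted. Among 50 other cell cycle and p53 genes, listed below, the number was 31, against 35 with any TSS. The 9 genes have 2 to 13 distinct TSSs each, with a median of 5 over protein-coding genes. Of the 84 peaks, 28 lay in a promoter window of any TSS, and only 7 in that of the canonical TSS. *CDKN2A*, *CDKN1B* and *TP73* had a promoter peak in 4 lines each, *CDKN2D*, *CDKN1A* and *CCND1* in 2, and *CDKN2B*, *CDKN2C* and *CCND2* in 1. All 9 had a gene body peak in at least 1 line (88.3% of protein-coding genes did), and *CDKN1B* and *TP73* had one in all 8 lines, as did 32.8% of protein-coding genes.

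**Figure D1:**
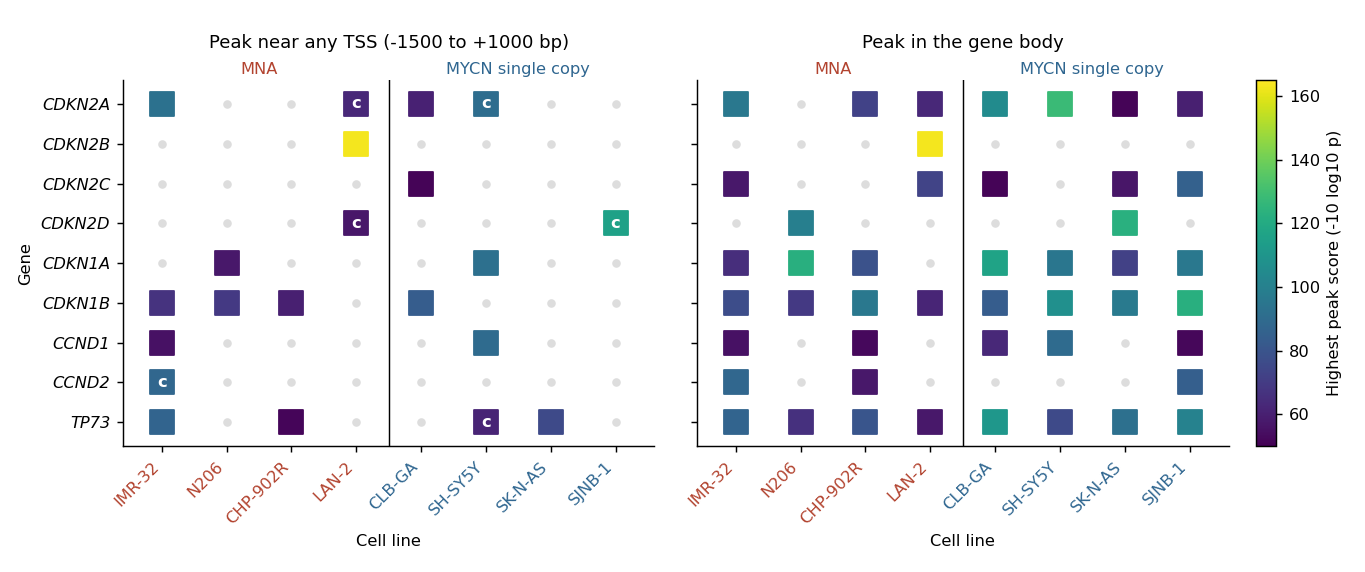
Peaks of the 9 genes (rows) in the 8 lines (columns), near any TSS on the left and in the gene body on the right. A square marks at least 1 peak, its color the highest score (minus 10 log10 p), a grey point no peak, and c a peak in the window of the canonical TSS; no row on either side is filled in one *MYCN* group and empty in the other.

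None of the 9 genes separated the *MYCN* groups, that is, was peak-bearing at its promoter in 4 lines of one group and 0 of the other. Over all genes with a promoter peak in 1 to 7 lines this was so for 127 of 34081, or 0.373%. The largest contrast was at *CDKN1B*, with a promoter peak in 3 MNA lines and 1 single copy line. This contrast had p = 0.4857 (Fisher's exact test, two-sided) and adjusted p = 1 after Benjamini-Hochberg correction over the 34081 genes. This difference, 50 percentage points of the lines, was 25 with the lists shortened to equal length and 0 with TSSs of protein-coding transcripts only or with peaks scoring under 100 dropped. Gene body peaks separated the groups at none of the 9 and at 0.27% of all genes tested. Of the MNA lines, IMR-32 had promoter peaks at 5 of the 9 genes, N206 at 2, CHP-902R at 2 and LAN-2 at 3. Of the single copy lines, they were found at 3 in CLB-GA, 4 in SH-SY5Y, 1 in SK-N-AS and 1 in SJNB-1, so the groups overlapped. Over protein-coding genes, the share with a promoter peak was 41% in IMR-32, the highest of the 8 lines, 36.2% to 39.8% in the other MNA lines and 33.3% to 38.4% in the single copy lines.

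*CDKN2A* encodes 2 unrelated proteins, the INK4 inhibitor p16 from a first exon called 1α and ARF, which protects p53 by binding MDM2, from a first exon called 1β farther upstream. The gene lies on the minus strand (chr9:21967751-21995300, GRCh37) and carried 13 peaks. Its most shared peak was at neither start: a region at chr9:21989387-21990541, between exons 1β and 1α, held a peak in 5 lines, IMR-32, CHP-902R, SJNB-1, SK-N-AS and SH-SY5Y. The scores there ran from 50.98 in SK-N-AS to 127.88 in SH-SY5Y. Of all merged regions of the genome (peaks of the 8 lines joined where they overlapped by at least 1 bp), 6.5% had a peak in at least 5 lines. The bases common to the 5 peaks are shown first below, because they are where lines of both *MYCN* groups coincide. The second sequence is the 250 bases just before the p16 start, where no line had a peak. Both are written 5′ to 3′ on the minus strand, with CpG dinucleotides in capitals.
CDKN2A, common to 5 lines, chr9:21989962-21990188, minus strand: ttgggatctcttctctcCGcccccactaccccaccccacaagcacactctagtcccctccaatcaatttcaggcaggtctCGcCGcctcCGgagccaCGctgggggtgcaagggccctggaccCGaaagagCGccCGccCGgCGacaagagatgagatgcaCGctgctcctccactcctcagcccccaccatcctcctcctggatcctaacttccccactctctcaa
CDKN2A, before the p16 start, chr9:21974866-21975115, minus strand: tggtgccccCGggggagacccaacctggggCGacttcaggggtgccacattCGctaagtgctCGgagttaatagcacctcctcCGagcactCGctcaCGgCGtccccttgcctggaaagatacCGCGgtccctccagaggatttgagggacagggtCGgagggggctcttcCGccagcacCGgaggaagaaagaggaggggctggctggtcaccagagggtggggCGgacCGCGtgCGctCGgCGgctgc

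The bases just before the p16 start held 19 CpG in 250 bases, or 7.6 per 100 bp, against 4.85 per 100 bp in the stretch common to 5 lines. At the p16 start, LAN-2 had a peak whose nearer edge lay 1105 bp upstream of the canonical TSS, with a score of 62.6, and SH-SY5Y one 1330 bp upstream with a score of 90.6. The other 6 lines had no peak in that window. At the ARF start, IMR-32 had a peak 279 bp upstream of the outermost TSS (score 92.98) and SH-SY5Y one 751 bp downstream of the innermost (score 62.49). The IMR-32 peak and the SH-SY5Y peak also fell in promoter windows of *CDKN2B-AS1*, the antisense RNA of the locus, and the capture does not mark strand. At 2 further groups of starts inside the gene, around exon 2, IMR-32 and CLB-GA shared a peak over the coding part of exon 2, with scores of 88.53 and 60.37. CLB-GA had 2 further peaks outside these windows, over a coding exon near the end of the gene (score 97.34) and in the intron 5779 bp upstream of the canonical TSS (score 104.81). In the 4 groups of starts taken apart, a peak was therefore present in 2 lines each, always 1 MNA and 1 single copy line, and the lines were not the same ones throughout.

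N206 had no peak in or near *CDKN2A*. Its nearest peak was 114410 bp from the canonical TSS, whereas the nearest peaks in the other lines lay 1105 to 15106 bp away. Peaks were sparse around the gene in every line: within 1 Mb on each side they covered 0.0738% of bases in SK-N-AS to 0.905% in LAN-2, against 1.39% to 2.13% of the whole genome. A lower copy number of the region in any line would lower its peaks, and this was not tested.

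*CDKN2B*, next to *CDKN2A*, encodes the INK4 inhibitor p15. Peaks were found only in LAN-2, where 2 adjoining peaks (chr9:22005068-22005669 and chr9:22005744-22006399) covered 19.65% of the gene, the second over the coding part of exon 2 with the score of 163.12, percentile 96.4 of its list. The 7 other lines had none. Both LAN-2 peaks also overlapped *CDKN2B-AS1*, the antisense RNA of the locus, and the capture does not mark strand. Both peaks counted as promoter peaks through the start of a transcript without a coding sequence, 2905 bp or more from the canonical TSS, and the window of the canonical TSS itself was free of peaks in all 8 lines. Fisher's exact test for 1 of 4 against 0 of 4 lines gave p = 1.

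*CDKN2C*, which encodes the INK4 inhibitor p18, had 5 peaks, 1 each in 5 lines. LAN-2, SK-N-AS and SJNB-1 shared an intronic region 4771 to 5102 bp upstream of the canonical TSS, with scores from 56.71 to 85.05. IMR-32 had a peak over the coding part of exon 2 (score 57.24). CLB-GA had the only promoter peak, with a score of 51.25, close to the lowest in its list (percentile 2.98), 249 bp downstream of the outermost start and in the shared window of *FAF1*, a gene read in the opposite direction. N206, CHP-902R and SH-SY5Y had none.

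*CDKN2D* encodes the INK4 inhibitor p19 and is the shortest of the 9 genes, at 2.6 kb. Its 4 peaks fell in 2 places with 2 lines each, an MNA and a single copy line in both. LAN-2 and SJNB-1 had a peak upstream, whose nearer edges lay 1191 and 798 bp from the canonical TSS, with scores of 57.15 and 115.98. N206 and SK-N-AS had a peak over the coding part of exon 2, with scores of 99.22 and 122.81, covering 31.08% and 28.35% of the gene.

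*CDKN1A* encodes p21, the CIP/KIP inhibitor that p53 induces to halt the cycle. It showed the most recurrent peak of the 9 genes: 7 of the 8 lines had a peak over exon 2 (chr6:36651635-36652528), the exon that holds the start codon, and LAN-2 had none. The scores in the MNA lines were 65.08 in IMR-32, 122.61 in N206 and 78.86 in CHP-902R. Those in the single copy lines were 116.9 in CLB-GA, 94.99 in SH-SY5Y, 72.31 in SK-N-AS and 96.17 in SJNB-1. The groups overlapped in presence (3 of 4 against 4 of 4 lines, Fisher's exact test, p = 1) and in score. This was 1 of the 47 merged regions of the 9 genes, and 1.73% of all merged regions of the genome had a peak in at least 7 lines. Within 1 Mb of the gene, peaks covered 3.21% of bases in LAN-2 and 2.49% to 4.2% in the other lines, beside 2.13% of the whole genome in LAN-2, the highest, and 1.39% to 2% in the others. The first 300 coding bases of exon 2, all inside the 7 peaks, are shown with CpG in capitals, since this was the stretch most widely captured. They begin with the start codon of p21 and hold 23 CpG.
CDKN1A, exon 2 coding part, chr6:36651879-36652178, plus strand: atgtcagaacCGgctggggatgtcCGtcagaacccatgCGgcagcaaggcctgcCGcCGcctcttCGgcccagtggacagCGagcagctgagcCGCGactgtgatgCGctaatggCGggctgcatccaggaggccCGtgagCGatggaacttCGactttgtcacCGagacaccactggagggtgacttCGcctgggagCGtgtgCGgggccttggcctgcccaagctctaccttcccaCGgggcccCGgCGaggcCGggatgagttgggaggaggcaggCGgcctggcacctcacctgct

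No line had a peak in the window of the canonical *CDKN1A* TSS, which holds 5.04 CpG per 100 bp. N206 (score 57.4) and SH-SY5Y (score 92.01) had a peak 1189 and 1248 bp upstream of the outermost start, 3443 and 3502 bp from the canonical TSS. This stretch also lies in the promoter windows of the long non-coding RNA *PANDAR* and the pseudogene *LAP3P2*. IMR-32 alone had a further wide peak of 1341 bp over exon 3, with a score of 52.94.

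*CDKN1B* encodes p27, the CIP/KIP inhibitor that holds quiescent cells. It had at least 1 gene body peak in every line, 14 in all, and none over a coding exon or in the window of its canonical TSS. IMR-32, N206 and CHP-902R shared a peak at chr12:12867492-12868109, 2193 to 2392 bp upstream of the canonical TSS, at the start of a transcript with no coding sequence. The scores were 67.01, 69.14 and 59.92, and no peak was there in LAN-2 or any single copy line (3 of 4 against 0 of 4 lines, Fisher's exact test, p = 0.1429, unadjusted). The peaks of the single copy lines lay 21328 to 27949 bp upstream of the canonical TSS, in the stretch where *GPR19*, on the opposite strand, overlaps the gene. SK-N-AS and SJNB-1 shared one of these and SH-SY5Y and SJNB-1 another (each 0 of 4 against 2 of 4, Fisher's exact test, p = 0.4286). The MNA lines also had peaks far upstream. IMR-32 had one 23314 bp away, which likewise lay in the stretch overlapped by *GPR19*. CHP-902R and LAN-2 had a shared one 18385 and 18445 bp away, outside that stretch. IMR-32 and CHP-902R shared a further one 6778 and 7115 bp upstream, and LAN-2 had one 4008 bp upstream. Both shared MNA regions were found in 2 of 4 against 0 of 4 lines (Fisher's exact test, p = 0.4286), so no region of the gene separated the groups.

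The 2 sequences below contrast the peak of the 3 MNA lines with the CpG-rich bases just before the canonical TSS, which no line had in a peak. The first held 12 CpG in 282 bases (4.26 per 100 bp) and the second 27 in 250 bases (10.8 per 100 bp).
CDKN1B, common to IMR-32, N206 and CHP-902R, chr12:12867629-12867910, plus strand, CpG in capitals: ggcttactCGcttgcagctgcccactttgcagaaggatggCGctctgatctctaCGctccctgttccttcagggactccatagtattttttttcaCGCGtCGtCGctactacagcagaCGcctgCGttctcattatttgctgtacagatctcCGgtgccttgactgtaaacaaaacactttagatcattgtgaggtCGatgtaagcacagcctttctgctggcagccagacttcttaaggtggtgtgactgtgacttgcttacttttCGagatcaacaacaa
CDKN1B, before the canonical start, chr12:12870052-12870301, plus strand, CpG in capitals: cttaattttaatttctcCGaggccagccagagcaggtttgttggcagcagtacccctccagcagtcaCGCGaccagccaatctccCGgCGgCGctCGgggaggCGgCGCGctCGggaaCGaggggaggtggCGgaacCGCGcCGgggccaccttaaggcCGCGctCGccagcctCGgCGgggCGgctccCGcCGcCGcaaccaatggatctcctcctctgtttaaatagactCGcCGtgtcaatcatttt

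*CCND1* encodes cyclin D1. Its 5 peaks, 1 each in 5 lines, were wide and mostly weak: their widths ran from 1397 to 6175 bp, between percentiles 96.3 and 99.99 of their lists, and 4 of the 5 scores lay between 51.9 and 62.7. The window of the canonical TSS had none in any line. IMR-32 (6175 bp, score 54.96) and SH-SY5Y (1397 bp, score 89.94) had a peak over exon 4. It counted as a promoter peak through a transcript without a coding sequence that starts there. The IMR-32 peak also reached exon 5, the last exon. CHP-902R, CLB-GA and SJNB-1 had a peak farther along the last exon, which also overlapped the neighbouring gene *LTO1*. N206, LAN-2 and SK-N-AS had none. The IMR-32 peak alone covered 46.36% of the gene. Peaks of IMR-32 also covered 7.96% of bases within 1 Mb of *CCND1*, against 2.21% to 4.74% in the other 7 lines and 2% of its whole genome. Whether gain of this region in IMR-32 has a part in this was not tested.

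*CCND2* encodes cyclin D2. IMR-32 was the only line with a promoter peak, and it had one on each side of the canonical TSS: chr12:4381364-4382505, ending 423 bp upstream (score 87.97), and chr12:4383161-4384236, beginning 233 bp downstream over the coding part of exon 1 (score 62.82). The first covered another annotated start of *CCND2*. Promoter windows of the antisense gene *CCND2-AS1* and of the loci ENSG00000285901 and ENSG00000290063 also met IMR-32 peaks here. The nearest peak to the canonical TSS was 7679 bp away in SJNB-1, 7785 bp in CHP-902R and 45807 to 58468 bp in the 5 other lines. Part of the first IMR-32 peak is shown because it was the peak nearest to any canonical start apart from its neighbour downstream.
CCND2, upstream, in the peak of IMR-32, chr12:4382019-4382318, plus strand, CpG in capitals: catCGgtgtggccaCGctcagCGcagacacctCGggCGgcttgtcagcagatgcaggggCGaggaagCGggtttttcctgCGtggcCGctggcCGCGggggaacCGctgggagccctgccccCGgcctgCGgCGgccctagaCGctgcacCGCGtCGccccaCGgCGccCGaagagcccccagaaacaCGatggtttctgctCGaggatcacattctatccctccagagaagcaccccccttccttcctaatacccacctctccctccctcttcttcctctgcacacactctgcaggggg
This stretch held 24 CpG in 300 bases, 8 per 100 bp, about as many as exon 2 of *CDKN1A*, with 7.67.

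*TP73* encodes p73, a relative of p53 whose full-length form activates p53 targets, while the ΔN form, made from a start inside the gene, opposes it. At 83.69 kb it was the longest of the 9 genes, with 26 peaks in 16 merged regions, 9 of them in a single line. At the canonical start, which gives the full-length form, SH-SY5Y alone had a peak, 566 bp upstream with a score of 61.61, in the shared window of *WRAP73*. This window was the richest in CpG of all 9, with 9.64 per 100 bp, above 98.1% of the canonical windows of protein-coding genes. At the ΔN start, SK-N-AS alone had a peak, which covered the TSS with a score of 52.9. A region just beyond the ΔN window (chr1:3608294-3609775) held a peak in CHP-902R, CLB-GA and SH-SY5Y, with scores of 80.29, 110.93 and 67.29 and nearer edges 1023 to 1089 bp from the last ΔN start against the window's limit of 1000 bp. The middle 300 bases of the part common to the 3 peaks are shown because these peaks lie so close to the limit.
TP73, after the ΔN start, chr1:3608469-3608768, plus strand, CpG in capitals: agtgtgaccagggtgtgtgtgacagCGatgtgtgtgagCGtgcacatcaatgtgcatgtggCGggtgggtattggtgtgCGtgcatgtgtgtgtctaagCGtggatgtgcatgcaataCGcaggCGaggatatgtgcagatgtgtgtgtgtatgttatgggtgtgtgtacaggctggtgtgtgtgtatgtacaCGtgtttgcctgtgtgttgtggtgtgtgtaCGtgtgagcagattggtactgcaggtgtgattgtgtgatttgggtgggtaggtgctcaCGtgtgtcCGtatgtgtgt

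The start with most peaks in *TP73* was the next one downstream (first TSS at chr1:3614610), with peaks in IMR-32, CHP-902R and SK-N-AS. IMR-32 had peaks on both sides of it, 174 bp upstream (score 86.58) and 575 bp downstream (score 55.69). The start farthest into the gene had a peak in IMR-32 only, over coding exons 8 and 9, and the remaining one had none. Within the gene body, a region at chr1:3626688-3627925 had a peak in CLB-GA, SH-SY5Y and SJNB-1, with scores of 66.57, 64.1 and 55.54, and in no MNA line (0 of 4 against 3 of 4, Fisher's exact test, p = 0.1429, unadjusted). Of the 47 merged regions of the 9 genes, this region and the one shared by 3 MNA lines in *CDKN1B* had the lowest p. The share of all merged regions of the genome with so low a p was not counted. It is therefore not known whether these regions are unusual. Together the 47 regions had a peak in 1 line in 24 cases, and 56.2% of all merged regions of the genome were found in 1 line.

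**Figure D2:**
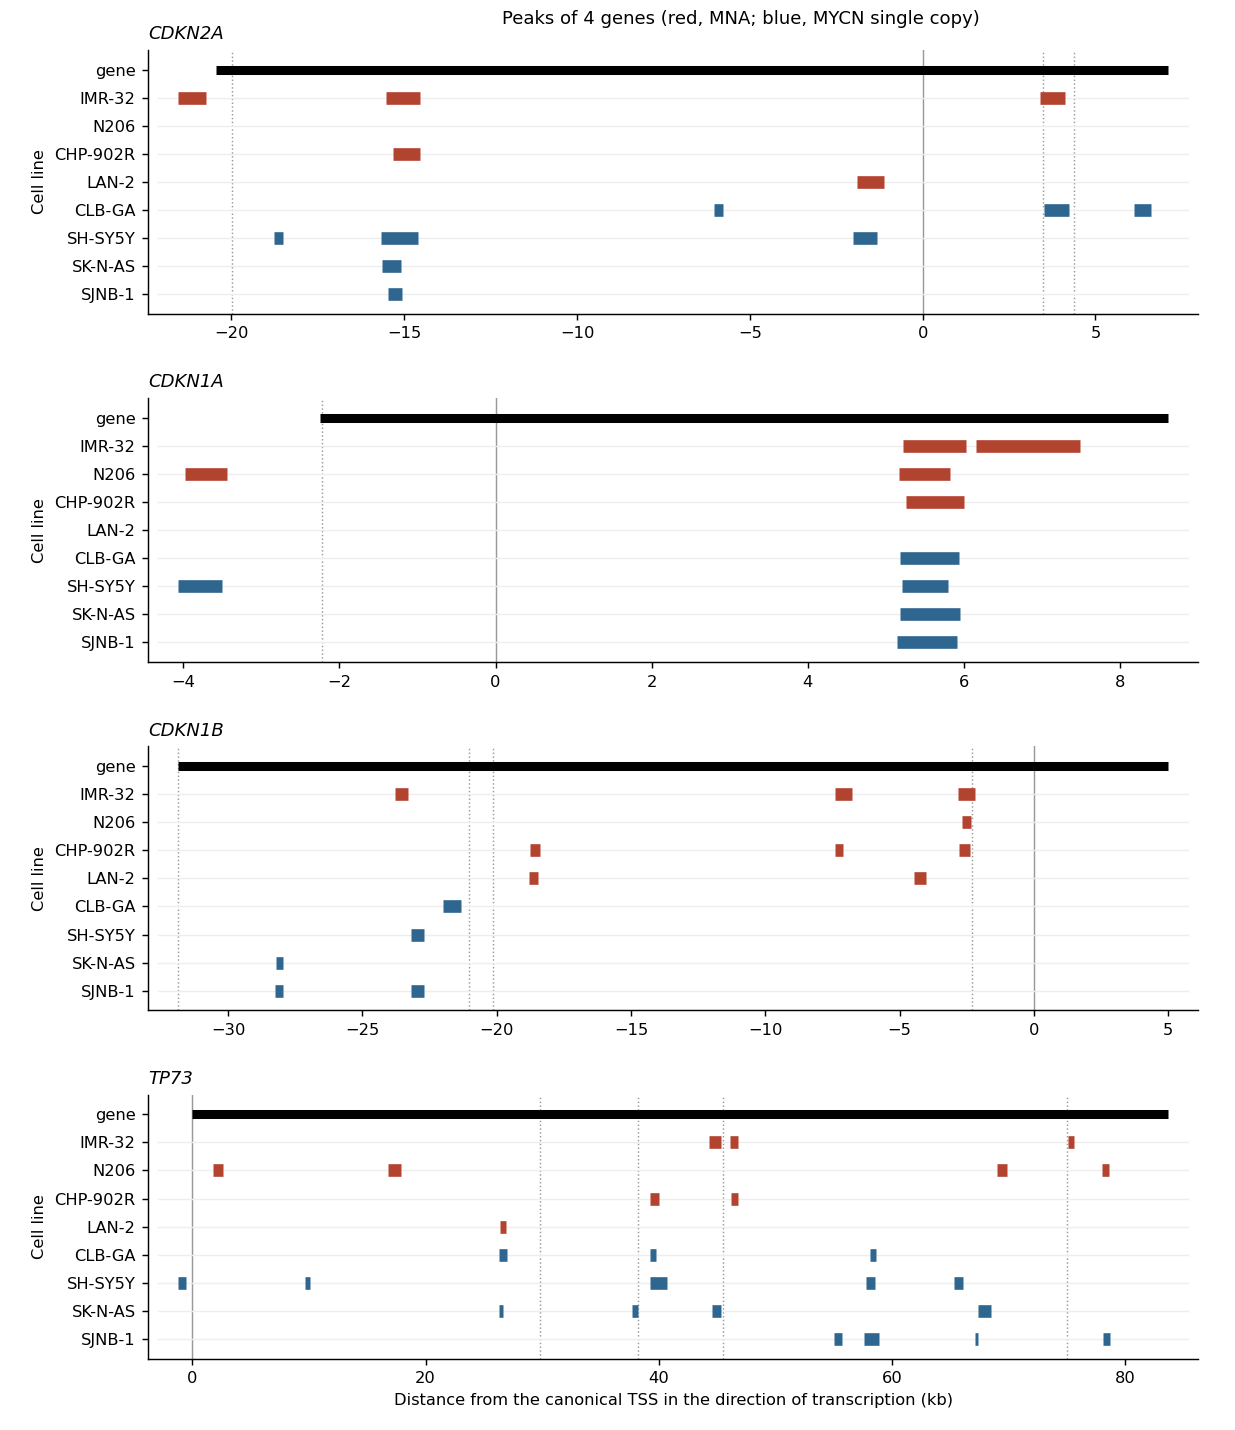
Peaks of *CDKN2A*, *CDKN1A*, *CDKN1B* and *TP73* in each line (rows) by distance in kb from the canonical TSS (solid line) in the direction of transcription, with other TSS groups as dotted lines and the annotated gene as a black bar. The red MNA and blue single copy bars show the *CDKN1A* exon 2 peak in 7 lines, the *CDKN2A* region in 5, and no *CDKN1B* region in more than 3 lines.

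The share of the gene body covered by peaks did not differ detectably between the groups in any of the 9 genes (exact permutation test, two-sided, unadjusted p from 0.2 to 1). Over all protein-coding genes with any cover, 2.8% had an unadjusted p under 0.05, and no adjusted p was under 1. The lowest p among the 9 was that of *CDKN1B*, with 2.69% ± 1.56 of the gene covered in MNA lines and 1.49% ± 0.609 in those with a single copy (SD, n = 4 each; exact permutation p = 0.2, adjusted p = 1). In single lines its cover was 4.65% in IMR-32, 0.914% in N206, 2.95% in CHP-902R, 2.24% in LAN-2, 1.78% in CLB-GA, 1.31% in SH-SY5Y, 0.73% in SK-N-AS and 2.13% in SJNB-1. Without N206, each of the 3 remaining MNA lines lay above the 4 single copy lines, with a difference of 1.79 percentage points (exact permutation p = 0.0286, unadjusted, the smallest that 3 against 4 lines allow). Among 306 differences of single genes recomputed under other settings, no other had an unadjusted p under 0.05. Without IMR-32 the difference at *CDKN1B* was 0.546 (exact permutation p = 0.4), and with the lists shortened to equal length 0.363 (exact permutation p = 0.8286). *TP73* was covered to 2.31% ± 1.53 in MNA lines, against 3.18% ± 0.93 in single copy lines (p = 0.3714, exact). *CCND1* had the widest spread, 13.4% ± 22.2 in the MNA lines against 7.91% ± 5.28 (p = 0.9714, exact), and without IMR-32 the difference turned from 5.48 to -5.51 percentage points. Leaving out IMR-32 also turned the difference at *CDKN1A* from 1.56 to -2.32 and at *CCND2* from 1.26 to -0.20 percentage points.

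CpG content was set beside the peaks, because capture by MBD2 needs methylated CpG and depends on how many there are. The canonical windows of the 9 genes held 4.32 to 9.64 CpG per 100 bp, with a median of 5.72, against a median of 4.24 over protein-coding genes and 0.985 in the genome. The peaks of the 9 genes had a median of 3.86 CpG per 100 bp, and all peaks of the 8 lines one of 2.66. Among the 30 groups of starts of the 9 genes (58 distinct TSSs, those within 500 bp joined), the 11 without a peak in any line had a median of 5.15 CpG per 100 bp and the 19 with one a median of 3.68. These medians describe the windows and were not tested. In the canonical windows of protein-coding genes sorted by CpG content into 4 equal classes, 37.4% of the poorest class had a peak in at least 1 line, and 52%, 54% and 53.4% of the other classes in rising order. The 9 genes fell in the upper classes only: 5 in the third, of which 1 (*CDKN2A*) had a canonical peak, and 4 in the richest, of which 3 had one (*CDKN2D*, *CCND2* and *TP73*). Of the 45-base stretches of each canonical window, 93.2% to 100% occur once in the genome.

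**Figure D3:**
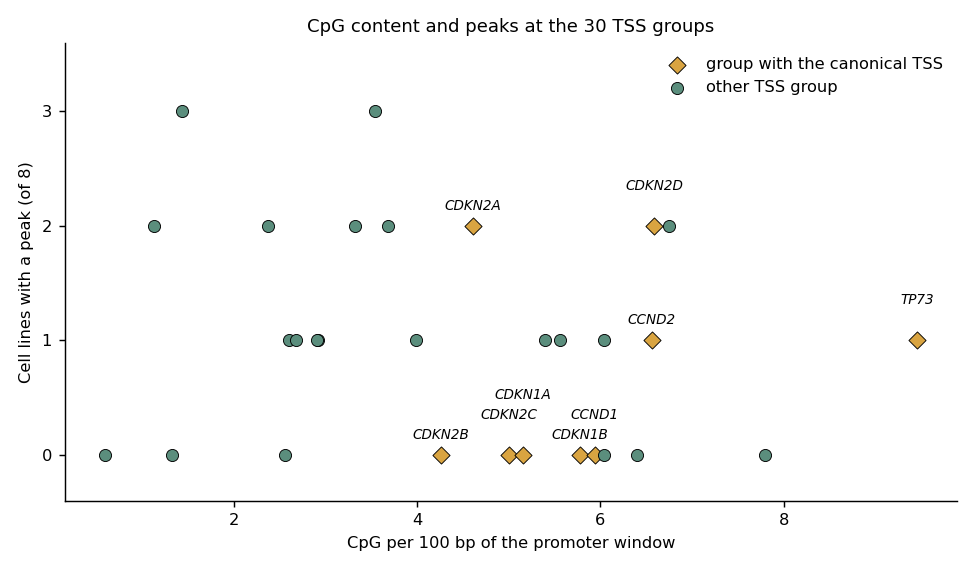
CpG per 100 bp of the promoter window (horizontal axis) and number of lines with a peak (vertical axis) for the 30 groups of starts, diamonds for those with the canonical TSS, labelled by gene, and circles for the others. No group had a peak in more than 3 lines, and 5 of the 9 diamonds lie at 0.

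Around the genes, the groups did not differ detectably. Within 1 Mb on each side, the mean cover at *CDKN1B* was 2.98% ± 1.2 in MNA and 2.11% ± 0.396 in single copy lines (SD, n = 4 each; exact permutation p = 0.2). It was 0.526% ± 0.312 and 0.241% ± 0.128 at *CDKN2A* (p = 0.1714, exact), and at *CDKN2B*, whose flank is nearly the same interval, p was 0.1143 (exact), the lowest of the 9. IMR-32 had the highest cover of the 8 lines at *CDKN1B*, *CCND1* and *CCND2*. It also had 15 of the 84 peaks, against 8 or 9 in the other MNA lines and 9 to 13 in the single copy lines. Over the whole genome, IMR-32 also had the widest peaks of the 8 lines, with a median of 549 bp, and the highest share of protein-coding genes with a peak at the canonical TSS, 21.3%; the part of these in its count was not tested.

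**Figure D4:**
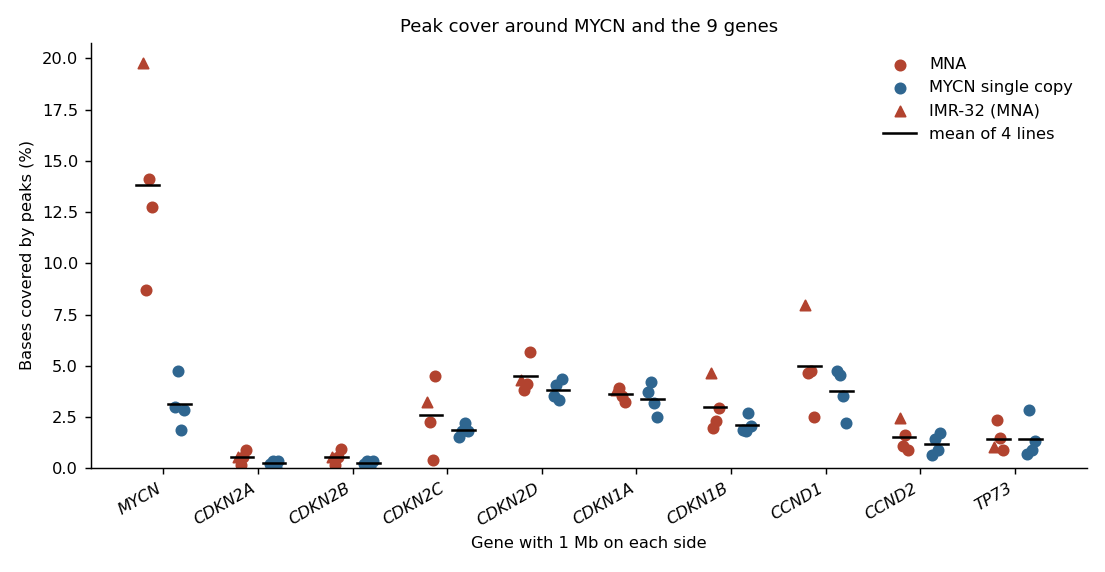
Percent of bases covered by peaks within 1 Mb on each side of *MYCN* and of the 9 genes, 1 point for each line (red, MNA, with IMR-32 as a triangle; blue, *MYCN* single copy) and a bar for the mean of 4 lines. The groups are apart at *MYCN* and overlap at the 9 genes, and IMR-32 stands at 7.96% at *CCND1*.

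Of 50 listed other genes of the cell cycle and p53 pathway, 35 (70%) had 1 or more lines with a promoter peak, against 73.9% of protein-coding genes, and 8 (16%) in at least 6 lines, against 21.6%. At the canonical TSS the order was the other way, with 27 of 50 (54%) against 49.2%. The median was 2 lines in the list, in the 9 genes and over protein-coding genes. None of the list separated the *MYCN* groups. Peaks in at least 6 lines were found at *CCND3*, which encodes the third D cyclin (8 lines), at the repressor gene *E2F8* (7 lines), and in 6 lines each at *CDK4*, the kinase partner of the D cyclins, *CDKN3*, *RBL2*, which encodes the RB relative p130, *CDC25B*, *SFN* and *PPM1D*. Only *SFN*, the p53 target gene for 14-3-3σ, had the peak at its canonical TSS in 6 lines (IMR-32, N206, CHP-902R, LAN-2, SH-SY5Y and SK-N-AS). *E2F8* and *CDC25B* had a peak at the canonical TSS in 5 lines each and *RBL2* in 3. *CDK4* had it there in IMR-32 alone, *CCND3* in SJNB-1 alone, and *CDKN3* and *PPM1D* in 0 lines. *CDKN1C*, which encodes the third CIP/KIP inhibitor p57, *RB1* and *TP63* had no promoter peak in any line. *CDK6* had one in N206 and LAN-2, in neither line at the canonical TSS.

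**Figure D5:**
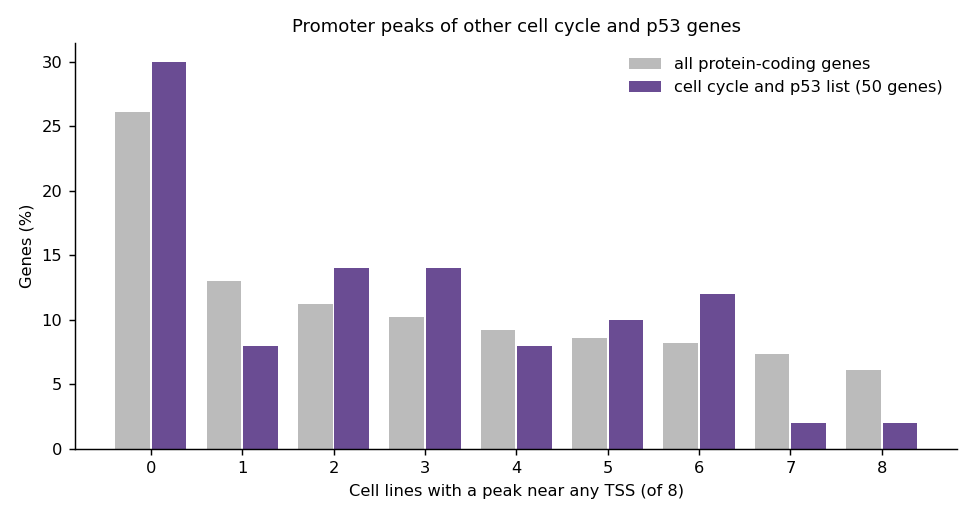
Share of genes (percent) by the number of lines with a promoter peak at any TSS, for all protein-coding genes (grey) and the 50 other cell cycle and p53 pathway genes (purple). In the list, 30% had none and 2% had one in all 8 lines, against 26.1% and 6.12% of protein-coding genes.

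The genes whose promoter peaks were most like those of the 9 were ranked by Pearson's r of the score percentile of the best promoter peak over the 8 lines, set to 0 where there was none, among protein-coding genes on other chromosomes. These values share the 8 libraries and their depths and are a description only. They were *MCL1* (r = 0.994) and *ZNF154* (0.992) for *CDKN2A*, *ROGDI* (0.988) and *ARNT2* (0.955) for *CDKN1B*, and *TRIM44* (0.997) and *GPR12* (0.994) for *TP73*. For *CDKN2D* (*NFE2L2* and *ADSS1*), *CDKN1A* (*PRKRIP1* and *SEC22C*) and *CCND1* (*HSF1* and *FUBP3*), with peaks in 2 lines, r was between 0.997 and 1. Peaks in the same 2 lines alone were found in 66 other protein-coding genes for *CDKN2D*, 73 for *CDKN1A* and 132 for *CCND1*. The named genes are the best 2 of many, so a high r is easily reached. The set of lines with a promoter peak was the same as that of *CDKN2A* in 38 other protein-coding genes, of *CDKN1B* in 30 and of *TP73* in 28.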

How the data were processed

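DNA of 8 NB lines was sheared, captured with MBD2 and sequenced as paired 45-base reads, 1 library a line. The authors mapped the reads to GRCh37 with Bowtie 0.12.7, and MACS was run on each line to call peaks. The options and any input control are not given in the sources used here. The deposited lists give the position and a score of each peak, minus 10 log10 of the MACS p-value, at least 50. Read counts per peak were not used here, so the depth behind a peak is unknown and no interval or floor was given.

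Peaks were overlapped with GENCODE release 44 on GRCh37 coordinates (chromosomes 1 to 22, X and Y, which left out 9 peaks) with Python 3.11.15, numpy 2.4.6, scipy 1.17.1, pandas 2.3.3 and numba 0.67.0, and figures drawn with matplotlib 3.10.9. The overlap and test functions were tested on simulated data. Groups follow the *MYCN* labels. Lines were compared by two-sided Fisher's exact tests of presence and exact permutation tests of covered shares. For promoter and gene body peaks, Benjamini-Hochberg correction ran over all genes with a peak in 1 to 7 lines. For the covered share of the gene body, it ran over protein-coding genes with any cover. Tests of merged regions and of cover within 1 Mb were not corrected. Each line is 1 culture, so the p-values compare lines as units, and the spread between cultures of the same line is unknown. Sequences and CpG content were read from the GRCh37 genome. The genes and the list were chosen with earlier results of these data known. Named are the 9 genes, list genes with a promoter peak in at least 6 lines or that separate the groups, those with none among 7 core genes, *CDK6* beside them, genes that share a window with a peak, the 2 most alike genes for each with peaks in 2 to 7 lines, and *MYCN*; *LTO1* was named after its position was seen. Not every item of the rule is reported here. Alternatives were a score of at least 100, 70816 peaks in each line, the peak midpoint, a window ending 500 bp downstream, TSSs of protein-coding transcripts only, and each line left out.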

Additional observations from a re-analysis of the deposited data

Results flagged for a closer look

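In 41 sets of 4 lines, the gap between the highest or lowest line and its nearest neighbour was divided by the range of the set, and 8 sets passed the 95% critical value of Dixon's test for 4 values. About 5% of sets of normally distributed values do so, but sets in which 3 of 4 lines are at 0 pass by construction with a ratio of 1. The 5% is therefore no baseline for the 8 sets.

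Such sets with 3 lines at 0 were the gene body cover of *CDKN2B* in the MNA lines (ratio 1, LAN-2 at 19.65%), of *CDKN2D* in the MNA lines (ratio 1, N206 at 31.08%) and in the single copy lines (ratio 1, SK-N-AS at 28.35%), and of *CCND2* in the single copy lines (ratio 1, SJNB-1 at 2.33%). At *CCND1*, IMR-32 stood high among the MNA lines (46.36%, ratio 0.845) and SK-N-AS low among the single copy lines (0%, ratio 0.928). At *CDKN1A*, SH-SY5Y stood low among the single copy lines, with 5.42% of the gene covered (ratio 0.923). In the number of peaks over the 9 genes, IMR-32 stood high among the MNA lines, with 15 (ratio 0.857).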

How the results depend on the processing

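When peaks scoring under 100 were dropped, 2 of the 9 genes had a promoter peak (*CDKN2B* in LAN-2 and *CDKN2D* in SJNB-1), 27 genes of all separated the *MYCN* groups, 18 of the 50 list genes had a promoter peak, and 0 line and start pairs of *CDKN2A* and *TP73* did, against 14. With TSSs of protein-coding transcripts only, 53 genes separated the groups, against 127, and 6 of the 9 genes and 31 of the 50 list genes had a promoter peak. The shares of all protein-coding genes with a promoter peak under these 2 settings were not counted. With a line left out, 237 to 322 genes separated them, the pairs numbered 9 (without IMR-32) to 14, and 0 of the 9 genes separated the groups.

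Of 306 differences for single genes under the alternatives, 208 had a value other than 0 to compare with, of which 174 kept its sign, 21 fell to 0 and 13 turned. Of the 98 whose reported difference was 0, 61 moved away from 0. The gene body cover (MNA minus single copy, percentage points) at *CDKN1B* was the only one with an unadjusted p under 0.05, without N206 (1.79, exact permutation p = 0.0286). The 13 values that turned their sign were all differences in cover. With peaks scoring under 100 dropped they were -7.09 at *CDKN2D*, -0.218 at *CDKN1A* and -0.537 at *CDKN1B*, and with the lists shortened to equal length -1.52 at *CDKN1A* and -7.91 at *CCND1*. With a line left out, the difference ran from -2.12 to 0.0596 at *CDKN2A* (turned without SH-SY5Y), from -7.09 to 7.77 at *CDKN2D* (-7.09 without N206, -1.68 without CLB-GA, SH-SY5Y or SJNB-1), from -2.32 to 4.29 at *CDKN1A*, from -5.51 to 9.94 at *CCND1* and from -0.20 to 1.88 at *CCND2*, the last 3 turned without IMR-32. The cause of these changes was not tested. No paired analysis was possible because the lines are unrelated and their labels carry no replicate numbers. The number of reads differed between the lines and is not known here for each, which limits what a missing peak shows.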
